A study of Mus musculus with 24 samples.

Results

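The genes described here are 10 feedback inhibitors of mitogen-activated protein kinase (MAPK) signalling, followed in mouse primary hepatocytes under glucagon or insulin. They comprise 7 dual-specificity phosphatase genes (Dusp1, Dusp4, Dusp5, Dusp6, Dusp8, Dusp10 and Dusp16) and 3 genes of the Sprouty and Spred family (Spry2, Spry4 and Spred1). They were chosen by name, and all 10 were found among the 22180 genes that the arrays measured through probe sets with 1 gene symbol. Each was read from 1 probe set, and Dusp6, which had another one, from the brighter.

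MAPK cascades carry signals from growth factor, insulin and stress receptors through the kinases ERK, JNK and p38. The dual-specificity phosphatases switch these kinases off by removing phosphate from both the threonine and the tyrosine of the activation loop, and differ in which kinase they prefer and in which compartment they work. Sprouty and Spred proteins act further upstream, on the step from receptor to Ras and Raf. Many of these genes are themselves switched on by the kinase they restrain, so their transcripts are often read as a record of recent ERK activity, while Dusp1 is also known as a target of cyclic AMP and of glucocorticoids.

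The hepatocytes came from male C57Bl6J mice, pooled from 3 mice in each experiment. They received adenovirus, at a multiplicity of infection of 5, with a hairpin against FOXA2 (shFOXA2) or, as control, against the bacterial gene lacZ (shlacZ). They were then treated for 4 h with 100 nM glucagon or 1 nM insulin, together with 2 µM GW4064, a compound that activates FXR, the receptor for bile acids, or with the solvent DMSO. All groups shared the virus and a medium with 100 nM dexamethasone, a glucocorticoid. The 8 groups were shFOXA2 with glucagon and GW4064, shFOXA2 with glucagon and DMSO, shFOXA2 with insulin and GW4064, shFOXA2 with insulin and DMSO, and the same 4 treatments with shlacZ. Each had 3 arrays, 1 from each of experiments 1 to 3. No group lacked both hormones, so a fall under glucagon and a rise under insulin cannot be told apart.

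Levels are given on the log2 scale, and a difference between groups is a log2 value with its standard error (SE). A difference is called where limma's adjusted p, taken over all 22180 genes, was under 0.05. The median of all deposited values was 3.25; a gene at about this level is at the floor, where the arrays read little change. Hepatocyte markers were high, with a median level of 9.53 over 9 genes and 13.1 for Alb, against medians of 2.72 for 8 macrophage, 3.47 for 7 stellate, 4.78 for 7 endothelial, 3.92 for 4 cholangiocyte and 2.60 for 5 lymphocyte markers. Single markers departed from these medians. The brightest lay at 9.12 for macrophage (Cd68), 7.18 for cholangiocyte (Sox9), 6.94 for endothelial, 6.17 for stellate and 2.98 for lymphocyte markers, and the dimmest hepatocyte marker at 2.67. Foxa2 was lower with shFOXA2 in 12 of 12 pairs of arrays of the same experiment and treatment, by -0.51, -0.66 and -0.12 in experiments 1, 2 and 3 on average (-0.43 over all, limma adjusted p = 0.0613, or 0.0194 with the experiment as a block). In experiment 3, 3 arrays stood apart in a mean of 6 genes of the NF-kB response. These were shFOXA2 with insulin and DMSO at 9.35, shlacZ with glucagon and GW4064 at 9.05 and shlacZ with glucagon and DMSO at 8.62, where the other glucagon arrays of the series lay between 6.51 and 7.71 and the other insulin arrays between 7.79 and 8.97.

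Glucagon against insulin moved 5 of the 10 genes, 4 of them down. Dusp5 and Dusp6, which encode ERK-directed phosphatases, and Spry4 fell under glucagon, to 62.0%, 28.6% and 56.0% of their insulin levels. Dusp8, whose product acts on JNK and p38, fell to 40.8%. Dusp10, another phosphatase of JNK and p38, rose to 118%, a small change that passed in only 14 of 35 alternative fits. Dusp1 and Dusp4, whose products also act on ERK, did not pass the test, nor did Dusp16, Spry2 and Spred1. Neither GW4064 nor the hairpin against FOXA2 moved any of the 10 past it. Averaged over both hairpins and both drugs, 4 of the 10 fell and 1 rose, where 8.85% of all genes fell and 7.38% rose (16.2% called in all). The median difference of the 10 was -0.17, against 0.01 over all genes. These genes were chosen with results of these data known, so their counts describe the list and are no separate evidence.

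**Figure D1:**
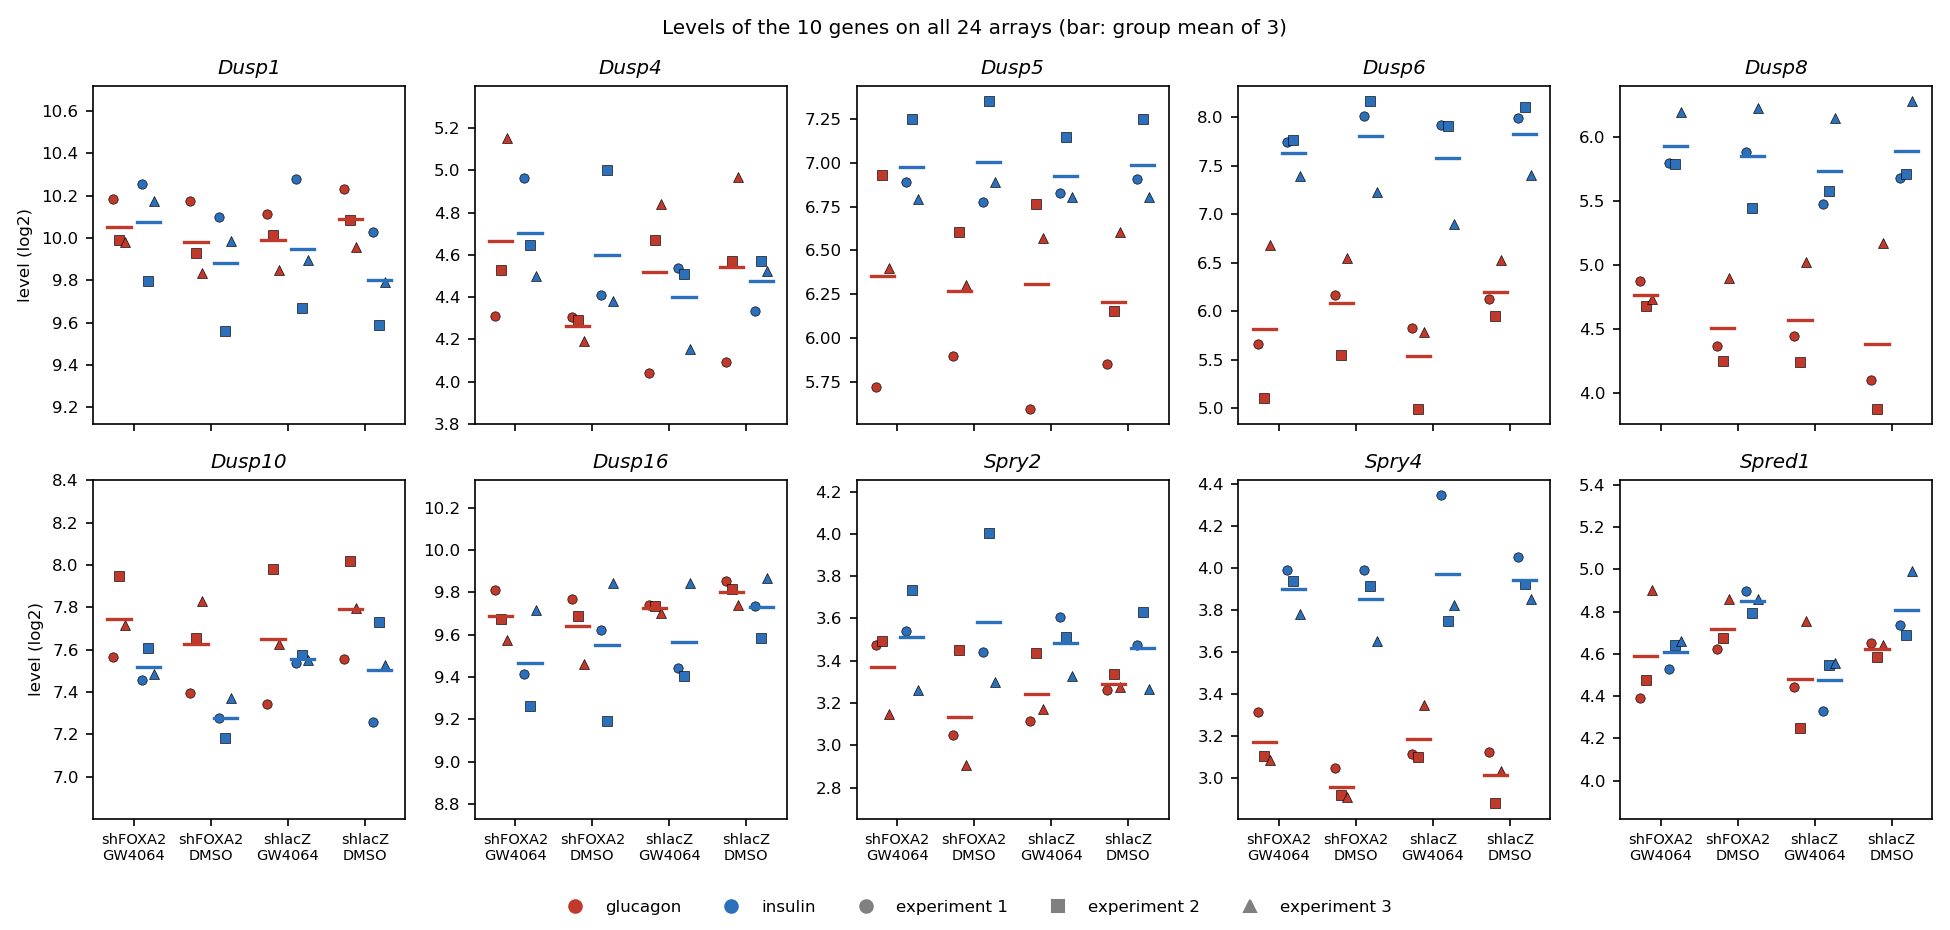
Levels (log2) of the 10 genes on all 24 arrays, 1 panel per gene, by hairpin and drug along the x axis; red marks glucagon and blue insulin, the marker shape gives the experiment and the bar the mean of 3 arrays. In the panels of Dusp6, Dusp8 and Spry4 every glucagon array lies below every insulin array, as for 1.96% of all genes. In all other panels, those of Dusp5 and Dusp10 included, the hormones overlap. Each panel has its own y range.

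The sequence just upstream of the annotated starts is shown because some members hold motifs of factors that cyclic AMP or ERK signalling is known to act on. Windows of 250 bases upstream of the start (RefSeq, GRCm38.p6) were used for 8 of the 10 genes. For 6 of them the start was the outer end of the gene; the start used for Dusp8 lay 623 bases and that for Dusp16 14435 bases inside it, so these are windows of internal starts. Each was searched on both strands for TGACGTCA, the full cyclic AMP response element, for the TGACG that it contains on either strand, for TGTTTAC, a forkhead motif, and for the CArG box, the motif of serum response factor. The motifs were chosen after the windows had been seen. The stretches that hold them follow, 5′ to 3′ on the strand of the gene, with TGACGTCA, TGACG (or its reverse complement) and CArG boxes in capitals.
Dusp1 (chr17:26508592-26508679, minus strand): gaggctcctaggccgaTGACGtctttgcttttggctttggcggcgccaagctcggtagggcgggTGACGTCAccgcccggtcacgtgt
Dusp8 (chr7:142095324-142095407, minus strand): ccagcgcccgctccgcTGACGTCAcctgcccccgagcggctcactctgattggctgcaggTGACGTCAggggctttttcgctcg
Dusp5 (chr19:53529047-53529110, plus strand): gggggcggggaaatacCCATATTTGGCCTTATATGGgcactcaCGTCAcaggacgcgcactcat
Dusp16 (chr6:134792678-134792714, minus strand): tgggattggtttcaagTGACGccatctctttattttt

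Dusp1 held 1 full TGACGTCA and 1 further TGACG, and Dusp8 held TGACGTCA at 2 places. Of all 32817 windows of this length in the table, 1.55% held TGACGTCA at least once and 0.0305% at 2 or more places. Dusp5 held 2 CArG boxes side by side and 1 TGACG, where 1.47% of windows held a CArG box and 0.0183% held 2 or more. Dusp16 held 1 TGACG, found in 17.7% of windows. Dusp6, Dusp10, Spry2 and Spred1 held none of these in the window, and TGTTTAC, found in 3.16% of windows, was in none of the 8. A match of letters is a description and not a bound site. Dusp1 and Dusp8, both with TGACGTCA, differed in how they behaved: Dusp8 fell under glucagon and Dusp1 was not called.

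Dusp6 encodes the phosphatase that holds ERK inactive in the cytoplasm; in mouse liver it has also been described as acting on FOXO1, a driver of gluconeogenic genes. Its level ranged from 4.99 to 6.69 with a median of 5.88 on the 12 glucagon arrays, against 6.90 to 8.16 with a median of 7.84 on the 12 insulin arrays. The hormones did not overlap, as was the case for 1.96% of all genes in this direction. In shlacZ cells with DMSO the levels of experiments 1, 2 and 3 were 6.12, 5.95 and 6.53 under glucagon, against 7.99, 8.10 and 7.40 under insulin. The mean difference of the 4 conditions was -1.80 (SE 0.19, 95% interval -2.19 to -1.41, limma adjusted p = 4.43e-07), and it was negative in 12 of 12 pairs.

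The size of the Dusp6 fall varied between experiments. It averaged -1.97 in experiment 1 and -2.59 in experiment 2, and -0.85 in experiment 3, where all 4 pairs lay closer to 0 than any pair of the other experiments. Without experiment 3 the averaged difference was -2.28. Without the 3 arrays that stood apart it was -1.95, and those of Dusp8, Spry4 and Dusp5 were -1.40, -0.88 and -0.79, all of them called. The dimmer probe set for Dusp6 lay at the floor, with means of 2.92 under glucagon and 3.02 under insulin, and differed by -0.10 (SE 0.056, adjusted p = 0.319). Averaging both probe sets gave -0.95 (adjusted p = 1.54e-06).

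Dusp5 encodes a nuclear phosphatase specific for ERK. Its levels were 5.60 to 6.93 with a median of 6.35 under glucagon, against 6.78 to 7.35 with a median of 6.89 under insulin, so the hormones overlapped slightly. The averaged difference was -0.69 (SE 0.15, adjusted p = 0.00217), with all 12 pairs negative. Like Dusp6 it differed least in experiment 3, at -0.35, against -1.08 in experiment 1 and -0.63 in experiment 2. Its insulin levels lay close together within each experiment, and under glucagon the arrays of experiment 1 were the lowest in each of the 4 conditions, between 5.60 and 5.90.

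Dusp8 encodes a phosphatase of JNK and p38. It ranged from 3.88 to 5.18 with a median of 4.57 under glucagon, against 5.45 to 6.28 with a median of 5.80 under insulin, with no overlap. In shlacZ cells with DMSO its levels were 4.10, 3.88 and 5.18 under glucagon in experiments 1 to 3, against 5.68, 5.71 and 6.28 under insulin. The averaged difference was -1.29 (SE 0.15, 95% interval -1.60 to -0.99, adjusted p = 1.59e-06). Unlike that of Dusp6, it was of similar size in all experiments, at -1.26, -1.37 and -1.25, although experiment 3 ran higher under both hormones, on average 0.38 above the group means.

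Of the Sprouty and Spred members, Spry4 fell. Sprouty proteins block the route from receptor tyrosine kinases to Ras and Raf. Spry4 ranged from 2.88 to 3.35 with a median of 3.09 under glucagon, against 3.65 to 4.35 with a median of 3.92 under insulin. The ranges did not overlap, and the difference was -0.84 (SE 0.066, adjusted p = 1.14e-08), negative in 12 of 12 pairs. On 10 of the 12 glucagon arrays, but on 0 of the insulin arrays, Spry4 lay below the median of all probe sets of that array, so its glucagon level is at the floor and the difference may understate the change.

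Spry2 was close to the floor throughout, at 2.91 to 3.49 under glucagon and 3.26 to 4.00 under insulin. Its difference was -0.25 (SE 0.086, adjusted p = 0.0557), with 11 of 12 pairs negative. The fit with experiment as a block called it (adjusted p = 0.00133). Spred1, which brings the Ras inactivator neurofibromin to the membrane, was at -0.08 (SE 0.064, adjusted p = 0.514), with a 95% interval of -0.22 to 0.05.

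The remaining phosphatases changed little or not detectably. Dusp10, a phosphatase of JNK and p38, rose by 0.24 (SE 0.077, adjusted p = 0.0380), with means of 7.79 ± 0.23 under glucagon and 7.51 ± 0.24 under insulin in shlacZ cells with DMSO (SD, n = 3 each). It was higher in 11 of 12 pairs. Its call depended on the arrays used: it passed in 8 of 27 fits that left out an experiment or an array. Without the 3 arrays that stood apart the adjusted p was 0.0727, without experiment 2 it was 0.257 for a difference of 0.17, and without experiment 3 it was 0.237.

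Dusp1, the immediate-early phosphatase that acts on p38, JNK and ERK in the nucleus, was bright under both hormones, at 9.83 to 10.2 under glucagon and 9.56 to 10.3 under insulin. Its difference was 0.10 (SE 0.083, adjusted p = 0.525), and its interval, -0.07 to 0.28, did not reach the size of the differences of Dusp5, Dusp6 or Dusp8. The pairs of experiment 2 were all positive with a mean of 0.35, while those of experiments 1 and 3 averaged 0.01 and -0.06.

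Dusp16, which acts on JNK and p38, differed by 0.14 (SE 0.074, adjusted p = 0.282). Its direction turned between experiments, at 0.24 and 0.37 in experiments 1 and 2 and -0.20 in experiment 3, all 4 pairs of each experiment sharing the sign of its mean. Without experiment 3 it was 0.30 and called (adjusted p = 0.00585). Dusp4, a nuclear phosphatase of ERK and JNK, was at -0.05 (SE 0.12, adjusted p = 0.882), with -0.37, -0.17 and 0.40 in the 3 experiments. Of the 12 pairs 4 were positive for Dusp4, 3 of them in experiment 3.

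**Figure D2:**
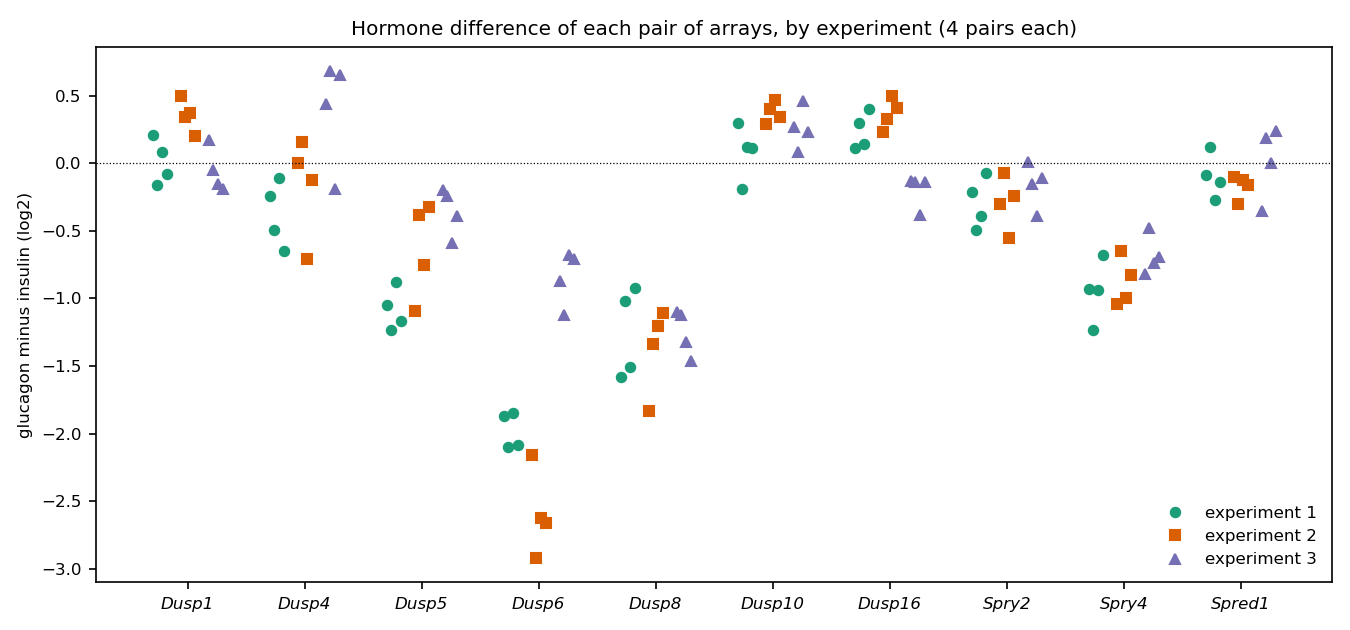
Glucagon minus insulin (log2 difference, y axis) for each pair of arrays with the same experiment, hairpin and drug, by gene (x axis), 4 pairs per experiment; colour and shape give the experiment. Dusp5, Dusp6, Dusp8 and Spry4 are negative in 12 of 12 pairs, the pairs of Dusp6 in experiment 3 lie closest to 0, and those of Dusp16 change sign in experiment 3.

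Within each of the 4 combinations of hairpin and drug, the genes called were Dusp6, Dusp8 and Spry4, all lower under glucagon. That is 3 of 10 in each, where 2.12% of all genes were lower in shFOXA2 cells with GW4064, 2.67% in shFOXA2 cells with DMSO, 1.80% in shlacZ cells with GW4064 and 2.98% in shlacZ cells with DMSO. Dusp6 differed by -1.82, -1.72, -2.05 and -1.63 in these conditions (SE 0.37 each), Dusp8 by -1.16, -1.34, -1.16 and -1.50 (SE 0.29) and Spry4 by -0.73, -0.90, -0.79 and -0.93 (SE 0.13). Dusp5 differed by -0.63, -0.74, -0.62 and -0.78 (SE 0.30) and was not called in any of them. With the experiment as a block Dusp5 passed in shFOXA2 cells with GW4064 (adjusted p = 0.0444), shFOXA2 cells with DMSO (0.0136) and shlacZ cells with DMSO (0.00982), and stood at 0.0508 in shlacZ cells with GW4064. In shFOXA2 cells with DMSO the block called 6 members, Spry2 (adjusted p = 0.00831) and Dusp10 (0.0488) among them, where it called 11.3% of all genes.

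The calls in single conditions were fewer without experiment 1 or 2, for the members and for all genes. With experiment 1 left out, 1 member was called in shFOXA2 cells with GW4064 (0.816% of all genes), 1 in shFOXA2 cells with DMSO (1.63%), 0 in shlacZ cells with GW4064 (0.784%) and 1 in shlacZ cells with DMSO (1.34%). With experiment 2 left out the counts in the same order were 0 (1.36% of all genes), 1 (1.64%), 0 (1.11%) and 1 (1.41%). The differences in these fits lay between -2.02 and -1.27 for Dusp6, between -1.47 and -1.07 for Dusp8 and between -0.93 and -0.56 for Spry4.

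The hairpin against FOXA2, set against shlacZ, moved none of the 10 genes past the threshold. Averaged over hormones and drugs the differences lay between -0.12 for Dusp16 (adjusted p = 0.846) and 0.12 for Dusp8 (adjusted p = 0.949). In limma 0 of 10 were called, where 0.00902% of all genes were. An unadjusted p under 0.05 was found for 0 of 10 and for 1376 of all 22180 genes. No 95% interval of a member reached past 0.44 in size. Dusp16 was lower with shFOXA2 in 11 of 12 pairs, by -0.39 at most (unadjusted p = 0.122 in limma). Dusp16 is singled out for this count, and pairs of an experiment share cells, so the count is a description. The difference between the hormone responses of shFOXA2 and shlacZ cells was also called for 0 of 10 members and 0% of all genes. It had an unadjusted p under 0.05 for 0 members and for 921 of all 22180 genes. For Dusp6 this difference of responses was 0.07 (SE 0.37), with an interval from -0.70 to 0.85 that leaves room for a large part of the response. Foxa2 itself was only partly lowered in these cells and hardly in experiment 3.

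GW4064, set against DMSO, gave no call among the 10 either. In limma 0 were called, as were 0.00902% of all genes. An unadjusted p under 0.05 was found for 1 member, Spred1, and for 766 of all 22180 genes. Spred1 was lower with GW4064 by -0.21 (SE 0.064, 95% interval -0.34 to -0.07) with an unadjusted p of 0.00417 and an adjusted p of 1.00, or 0.314 with the block. In shFOXA2 cells with insulin its levels in experiments 1 to 3 were 4.53, 4.64 and 4.66 with GW4064, against 4.90, 4.79 and 4.86 with DMSO. In shlacZ cells with insulin they were 4.33, 4.55 and 4.56 with GW4064, against 4.73, 4.69 and 4.99 with DMSO. Of all 12 pairs 10 were lower with GW4064, and the 2 that were higher came from experiment 3 under glucagon. Spred1 is singled out here for its unadjusted p, so these levels are a description.

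Dusp6 was at -0.34 with GW4064 (SE 0.19, adjusted p = 1.00), lower in 10 of 12 pairs, with an interval of -0.73 to 0.05. Under glucagon its difference was -0.47 (SE 0.26) and under insulin -0.21 (SE 0.26), and these were not called different (difference -0.26, SE 0.37, adjusted p = 1.00). For none of the members was the hormone response called different between GW4064 and DMSO (0 of 10 in limma, 0% of all genes). The unadjusted p of this was under 0.05 for 0 members and for 584 of all 22180 genes.

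**Figure D3:**
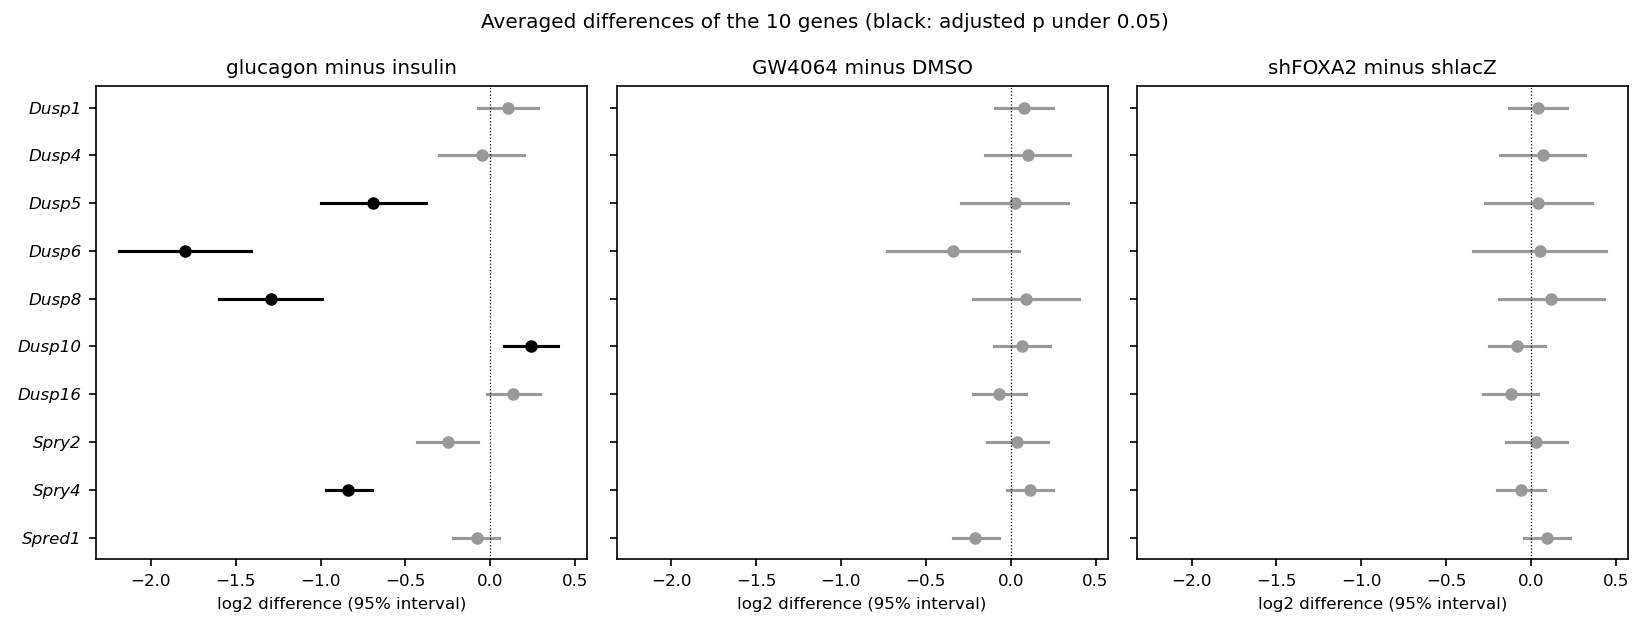
Log2 differences (x axis, point) with 95% intervals (line) of the 10 genes (y axis) in 3 panels, for glucagon minus insulin, for GW4064 minus DMSO and for shFOXA2 minus shlacZ, each a mean of 4 conditions; black marks an adjusted p under 0.05. Only the hormone panel has black points, from -1.80 for Dusp6 to 0.24 for Dusp10.

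Relatives of these genes outside the list were counted in the same way. Of 7 further genes of the same families 2 fell under glucagon, 1 rose and 4 did not pass (median -0.04). Those that fell were Spry1, at -1.18 (SE 0.13, adjusted p = 8.27e-07), with a mean of 3.07 under glucagon and 4.25 under insulin, and Spred3, at -0.82 (SE 0.17, adjusted p = 0.00146). Spry3 rose by 0.10 (adjusted p = 0.0471) at the floor. The 4 that did not pass, named here although not called, were the phosphatase genes Dusp7 (0.19), Dusp9 (0.00) and Dusp2 (-0.04), and Spred2 (-0.18). The glucagon levels of Spry1 and Spred3 were at the floor as well, like that of Spry4. Of 11 atypical dual-specificity phosphatases, which lack the kinase-binding domain of the MAPK phosphatases, 1 fell (Dusp22, -0.29, adjusted p = 0.000733) and 10 did not pass. With the experiment as a block 3 fell, as did 2801 of all 22180 genes. Of 7 other phosphatases known to act on MAPKs 0 passed in limma. An unadjusted p under 0.05 was found for 1 of the 7 and for 5604 of all 22180 genes.

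Genes of the kinase cascades were called in both directions, where 16.2% of all genes were called. Of 13 measured genes of the ERK cascade 2 rose, 2 fell and 9 did not pass (median 0.02). With the experiment as a block 4 rose and 2 fell, where it called 5454 of all 22180 genes. The kinase gene Map2k1 was at 0.44, the Ras exchange factor gene Sos1 at 0.41, the phosphatase gene Ptpn11, which passes receptor signals on to Ras, at -0.44 and Nf1, the neurofibromin gene, at -0.26. Of 15 genes of the JNK, p38 and ERK5 cascades 1 rose, 3 fell and 11 did not pass (median -0.01). Map2k3, a p38 kinase kinase gene, was lower by -1.24 (SE 0.072, adjusted p = 1.27e-10). Map3k1 was at 0.40, Map2k4 at -0.19 and Map3k7 at -0.18.

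Most transcripts known to follow ERK activity fell, as the members Dusp5, Dusp6, Dusp8 and Spry4 did. Of the 10 members 4 fell, 1 rose and 5 did not pass. ERK activity itself was not measured, and the cause of these falls was not tested. Of 16 measured, 11 fell, 0 rose and 5 did not pass, with a median of -1.10 against 0.01 over all genes. The factor gene Egr1 had means of 3.98 under glucagon and 7.22 under insulin, a difference of -3.24 (SE 0.10, adjusted p = 1.26e-14). The growth factor gene Hbegf was at -2.61, Phlda1 at -2.56 and the immediate-early gene Ier2 at -1.97. Etv4 and Etv5, factors of the ETS family that are also known ERK targets, were at -0.07 and -0.03 with mean levels near or at the floor, and did not pass; they are named after their values were seen.

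Of 12 genes known to respond to cyclic AMP and its factor CREB, 11 rose and 0 fell (median 2.06), led by Pck1 (6.04), Nr4a3 (5.38), G6pc (5.16) and Ppargc1a (3.76). Of 7 glucocorticoid-responsive genes 3 rose, 1 fell and 3 did not pass (median 0.36), with Zbtb16 at 1.61, Sgk1 at 1.16, Tsc22d3 at 0.61 and Fkbp5 at -0.34. Dusp1, known as a target of both signals, was among the members that did not pass. Of 9 hepatocyte markers 4 rose under glucagon and 0 fell (median 0.27), namely Hnf4a at 0.97, Cps1 at 1.10, Fgb at 0.43 and Ttr at 0.27, and their mean level was 8.79 to 9.32 on the glucagon arrays and 8.38 to 9.08 on the insulin arrays. For 4 cholangiocyte markers the mean level was 4.09 to 4.44 on the glucagon arrays and 4.39 to 5.10 on the insulin arrays. Of these 1 fell, as Dusp6, Dusp8, Dusp5 and Spry4 did, namely Sox9 at -1.20, while Krt19 was at -0.53 (adjusted p = 0.160) and Krt7 and Epcam lay near the floor under both and did not pass. Among 7 stellate markers 1 rose, Dcn at 0.35. Among 8 macrophage, 7 endothelial and 5 lymphocyte markers 0 passed in limma. An unadjusted p under 0.05 was found for 0, 0 and 1 of them and for 5604 of all 22180 genes. With the experiment as a block 2 cholangiocyte markers fell, and 5 hepatocyte, 3 stellate, 1 macrophage and 1 endothelial marker rose. Of all 22180 genes the block called 2801 lower and 2653 higher. The part of these cells in the result was not tested; in bulk arrays fewer cells of a type and less RNA per cell cannot be told apart.

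**Figure D4:**
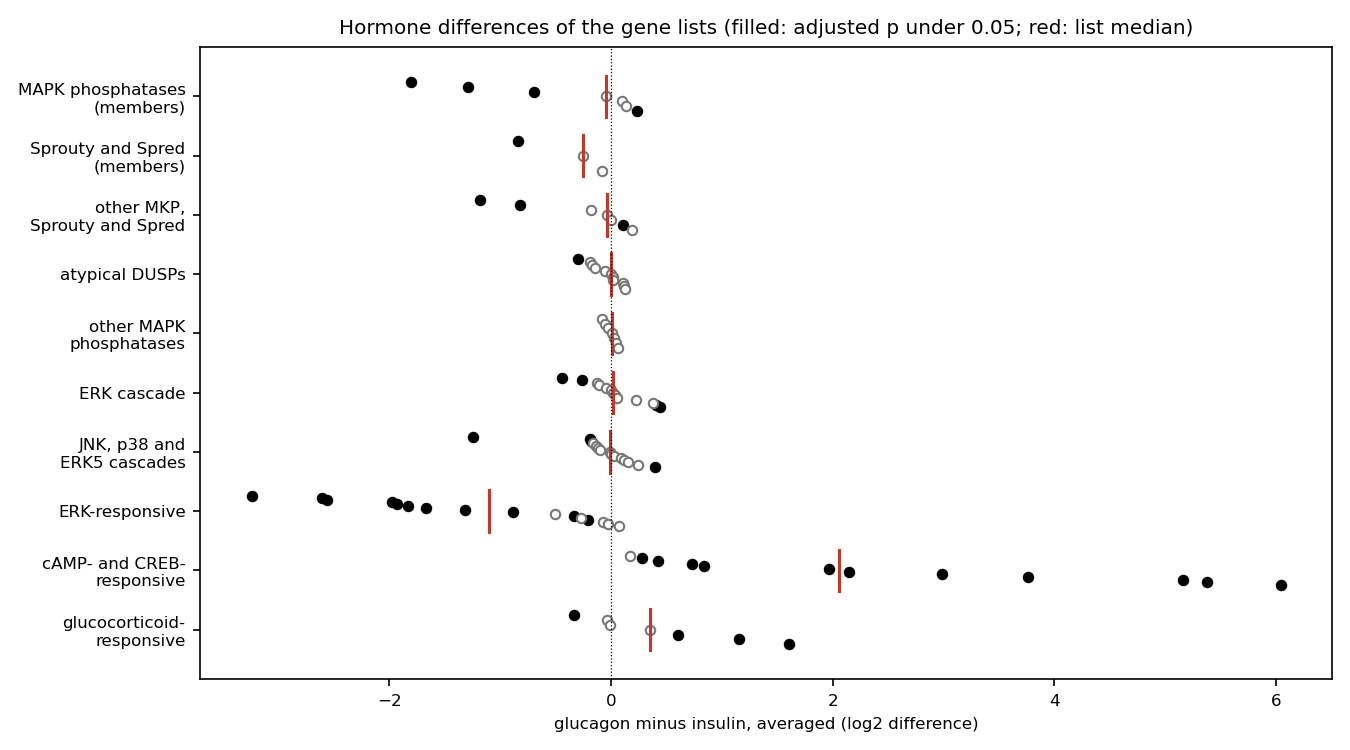
Averaged glucagon minus insulin differences (log2, x axis) of single genes in each list (y axis); filled points have an adjusted p under 0.05 and the red line is the list's median. The ERK-responsive list has its median at -1.10 and the cAMP- and CREB-responsive list at 2.06, while the medians of both kinase cascade lists are at 0.02 and -0.01.

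With the hormone held fixed, 5 of the 6 pairs among the genes that fell correlated with opposite signs under glucagon and insulin. Dusp6 and Spry4 correlated at r = -0.25 over the 12 glucagon arrays and 0.51 over the 12 insulin arrays, Dusp8 and Spry4 at 0.43 and -0.60, and Dusp6 and Dusp8 at 0.31 and -0.84. Dusp5 correlated with Dusp6 at -0.31 and 0.55 and with Dusp8 at 0.23 and -0.59, whereas Dusp5 and Spry4, at -0.15 and -0.10, shared their sign. Dusp1 and Dusp5 ran opposite ways under both hormones, at -0.71 and -0.78. Under glucagon the 6 pairs lay only between -0.31 and 0.43, so their signs are uncertain. How often other gene pairs differ in sign was not counted. These arrays share experiments and cell pools, so the values are descriptions.

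Across all 24 arrays, hormones included, the genes whose levels were most like those of each member were sought among those with a mean level of at least 4. For Dusp6 they were Rnf19a (r = 0.932) and B3gnt2 (0.929), for Dusp5 Src (0.946) and Clic1 (0.928), and for Dusp8 Dot1l (0.963) and Zyx (0.946). Spry4 was closest to Angptl4 (0.959) and to Map2k3 (0.957), and Spry2 to Ppp1r18 (0.916) and Smurf1 (0.884). All 10 of these genes were lower under glucagon, from -0.42 for Src and Smurf1 to -1.84 for Angptl4, so the likeness holds the hormone difference. Likeness was lower for the other members, at 0.838 for Dusp1 (Rhbdd2), 0.822 for Dusp10 (Olfml2b), 0.792 for Dusp16 (Rhoq), 0.750 for Spred1 (Naa35) and 0.690 for Dusp4 (H13), and the next genes in line were Gstp2 (0.830), Fgl1 (0.810), Slc22a23 (0.767), Tmem161b (0.725) and Tap1 (0.661).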

How the data were processed

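RNA of 24 hepatocyte cultures was measured on Affymetrix MoGene 2.0 ST arrays with 300 ng of RNA each, per the labels' protocols. The values are log2 expression levels deposited by the authors for 41345 probe sets, made with GeneSpring after pooling technical replicates, per the series' design text; the log2 scale was read from the values (1.46 to 13.5), and how they were normalized and background-corrected is not given in the sources used here. Array medians lay between 3.21 and 3.28. The number of arrays limits the precision.

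Genes were named from the platform annotation, in which 23521 probe sets had 1 symbol, 1814 several and 16010 none. Where a gene had several, the brightest on average was used, which gave 22180 genes. Differences were fitted with limma 3.58.1 in R 4.3.3 (1 mean per group, all arrays, 16 residual degrees of freedom). P-values were adjusted by Benjamini-Hochberg over all genes, with a threshold of 0.05. The fit was tried on simulated data in which arrays of an experiment shared nothing. That trial therefore says nothing on the p-values of arrays that share an experiment. Figures were drawn with matplotlib 3.10.9. The experiment numbers pair the arrays, since each experiment used its own cell pool: deviations from group means correlated at 0.374 to 0.698 in all 84 pairs of the same experiment. An alternative fit had the experiment as a block (14 degrees of freedom). In single conditions the p-values measure the spread between 3 experiments, pooled over all groups. The main fit had no pairing and left shifts between experiments in that spread, which the block takes out. For the averaged hormone difference the SE was 0.15 without and 0.079 with the block for Dusp8, and 0.19 and 0.18 for Dusp6. A gene not called in the main fit, such as Spry2, may thus pass with the block. In averaged differences, with or without the block, the 4 pairs of an experiment count as separate. The p-values and intervals of averaged differences thus do not measure how a difference varied between experiments, and may make it look firmer than 3 experiments allow.

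Other alternatives were a random block, median centring, quantile normalization, a minimum mean level of 4, averaged probe sets, trend and robust moderation, and leaving out each experiment or array. The members, lists and motifs were chosen with earlier results of these data known. From each list the text names up to 4 called genes with the largest averaged hormone difference, and for each member the 2 most correlated genes; exceptions are said. Promoter windows came from RefSeq's table (GRCm38.p6), cut to 250 bases upstream, for 8 members; promoters of Dusp4 and Spry4 were not analysed here.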

Additional observations from a re-analysis of the deposited data

How the results depend on the processing

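The averaged falls of Dusp5, Dusp6 and Dusp8 under glucagon passed in 35 of 35 alternatives and that of Spry4 in 34 of 34, since a minimum mean level of 4 removed Spry4 and Spry2 from the test. Leaving out single experiments or arrays gave -0.86 to -0.49 for Dusp5, -2.28 to -1.41 for Dusp6, -1.39 to -1.23 for Dusp8 and -0.91 to -0.78 for Spry4. The rise of Dusp10 passed in 14 of 35 alternatives (0.17 to 0.32, adjusted p from 0.00258 to 0.257), and Spry2 passed in 11 of 34. Dusp1 ranged from -0.02 to 0.18, Dusp4 from -0.27 to 0.12 and Dusp10 in shlacZ cells with GW4064 from -0.07 to 0.25 when experiments or arrays were left out, and changed sign in 1, 5 and 2 of 27 cases; the cause was not tested. Dusp16 passed in 1 of 35, without experiment 3.

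Of the 10 members, 5 were called on average, and 4 to 6 when experiments or arrays were left out. In single conditions 3 were called, and leaving out experiments or arrays gave 1 to 3 in shlacZ cells with DMSO, 1 to 3 in shFOXA2 cells with DMSO, 0 to 3 in shlacZ cells with GW4064 and 0 to 3 in shFOXA2 cells with GW4064; these fits have fewer arrays. With the experiment as a fixed or random block, 6 and 5 were called in shFOXA2 cells with DMSO, and the block changed no other count of members by over 1.5 times. Over all genes, 3600 were called on average, 5454 with the block and 2018 without experiment 1. In shlacZ cells with DMSO 1039 were called (2481 with the block, 297 without experiment 1), in shFOXA2 cells with DMSO 1062 (2500 and 362), in shlacZ cells with GW4064 686 (1865 and 174) and in shFOXA2 cells with GW4064 775 (2027 and 181). For GW4064 2 genes were called (3 with the block) and for the hairpin 2 (17 with the block). The alternative without the 3 arrays that stood apart was chosen after seeing the data.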
